A study of Mus musculus with 31 samples.

Results

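The cytosolic ribosomal proteins are the protein subunits of the ribosomes that translate nuclear messages in the cytoplasm. They were taken from the exon array features that carry a single gene symbol, by name: Rpl or Rps followed by a number, with an optional paralog letter, and Rpsa, Rplp0, Rplp1 and Rplp2, leaving out S6 kinases, named pseudogenes and Rps19bp1. This gave 50 of the 16345 features, for 43 genes. The large (60S) subunit had 33 features for 28 genes and the small (40S) subunit 17 features for 15 genes. In the small subunit RefSeq lists Rps4l as a transcribed pseudogene and another member as a pseudogene. Both were kept, since the rule went by name. A further 49 features list a ribosomal protein together with other symbols and were kept apart, so that many ribosomal proteins were not measured by a feature of their own.

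The study used translating ribosome affinity purification (TRAP) on mouse brain. Ribosomes carrying a tag in either Drd1a- or Drd2-expressing cells were pulled down from the entire cortex or from the striatum, and the attached RNA was labelled with biotin and hybridised to 31 exon arrays. The mice were 6 weeks old (young) or 2 years old (old), untreated, and the 8 groups crossed age, region and cell type. They were young cortex Drd1a, young cortex Drd2, old cortex Drd1a, old cortex Drd2, young striatum Drd1a, young striatum Drd2, old striatum Drd1a and old striatum Drd2, each with 4 arrays, but young striatum Drd1a with 3. The sources used here give neither the strain nor the transgene that carried the tag, nor whether each array came from a mouse of its own. The p-values therefore reflect the spread among arrays, which may be technical. The receptors followed the labels: Drd1 was between -3.13 and 0 on every array of Drd2 cells and between 0.070 and 1.86 on every array of Drd1a cells, and Drd2 was between -4.87 and -2.90 on arrays of Drd1a cells and between 0 and 0.64 on those of Drd2 cells. Drd1 was not steady with age in Drd2 cells, at -2.91 ± 0.031 (SD, n = 4) in young and -1.18 ± 0.50 in old cortex and -2.75 ± 0.27 in young and -0.34 ± 0.24 in old striatum.

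A ribosome holds about the same number of each of its proteins, and cells make them in step. Many of their messages start with a C followed by a run of C and T bases, the 5' terminal oligopyrimidine tract, through which mTOR signalling and the RNA-binding protein LARP1 set how much of them is translated. Neurons keep ribosomes in dendrites and axons as well as in the cell body. TRAP in its usual form tags the ribosome with EGFP fused to Rpl10a, the protein of the mobile L1 stalk, so that RNA is captured through a member of the very set described here.

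The values are log2 signals of which each feature's own median over the arrays was taken off, so they say nothing of how abundant one message is beside another. A value of 0.10 means a signal 0.10 log2 units above that feature's median. Differences were old minus young, Drd1a minus Drd2, or striatum minus cortex. Calls needed a Benjamini-Hochberg adjusted p under 0.05 in limma's moderated test over all 16345 features and a size of at least 1.2-fold (0.26 log2 units), the thresholds the submitters state. None of the 50 features was removed by a filter on low values, since none was applied. Because tissue was pooled before purification, fewer cells of a type and less RNA per cell cannot be told apart.

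The start regions of 6 of the 8 genes whose features were called (all but Rplp1 and Rpl36) are shown because their bases bear on the tract described above. Each line holds 15 bases before and 15 from the transcription start listed by RefSeq (mouse build GRCm38.p6), 5' to 3' on the gene's strand, with a start tract in capitals. A start tract is here a C followed by at least 4 C or T, beginning within 5 bases of the listed start. Genes with more than 1 listed start have a line for each.
Rpl34, chr3:130730323-130730352, minus strand: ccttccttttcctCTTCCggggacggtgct
Rpl34, chr3:130730384-130730413, minus strand: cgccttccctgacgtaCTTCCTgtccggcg
Rps3, chr7:99483695-99483724, minus strand: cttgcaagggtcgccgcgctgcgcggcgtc
Rpl22, chr4:152324421-152324450, plus strand: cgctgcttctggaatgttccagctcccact
Rpl22, chr4:152325711-152325740, plus strand: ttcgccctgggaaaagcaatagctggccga
Rpl31, chr1:39367836-39367865, plus strand: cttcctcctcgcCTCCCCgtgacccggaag
Rps27, chr3:90213634-90213663, minus strand: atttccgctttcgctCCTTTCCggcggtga
Rpl37a, chr1:72711245-72711274, plus strand: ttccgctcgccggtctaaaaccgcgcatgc
Rpl34, Rpl31 and Rps27 carry the tract, while Rps3, Rpl22 and Rpl37a show none at the listed start, and a listed start can lie some bases from the one a neuron uses.

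RefSeq windows of 300 bases (250 before to 50 from the start) were at hand for 36 of the 43 genes, in 43 windows. The start tract was present in 16 of these 36 genes (44.4%) against 21.2% of 27025 genes with such windows, and at the start itself in 7 (19.4%) against 3.01%. CCGGAAG, the core of sites of the ETS factor GABP, searched on both strands over the whole window, was present in 13 of 36 (36.1%) against 9.93% of genes. TATAAA, also on both strands, was present in 4 (11.1%) against 15.7%, and it shares no stretch with CCGGAAG. These are descriptions of the letters in the windows, not of bound sites.

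In log2 units the ribosomal protein messages moved little across the 8 groups, and within groups they moved together from array to array. The range of a feature's 8 group means had a median of 0.24 log2 units in the large subunit and 0.23 in the small, against 0.30 over all features. Arrays of one group also spread less: the residual SD had a median of 0.083 in the large subunit and 0.084 in the small, against 0.14 over all features. A range of group means grows with the spread among arrays. The narrower range therefore does not show that the set differed less between groups relative to that spread. Once group means were taken off, pairs of small subunit features had a median Pearson correlation over the 31 arrays of 0.44 (136 pairs) and pairs of large subunit features 0.35 (528 pairs). The same figure was 0.13 for 70 features of the mitochondrial ribosome and 0.20 for 36 proteasome features. These correlations are descriptions, since all features share the arrays and their signal distributions, and near-identical gene copies can share probes. The same figure over pairs of all features was not computed.

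The level of the set was read on each array as the median over its features. In the large subunit the mean of these array medians was highest in young striatum Drd1a, 0.092 ± 0.028 (SD, n = 3), and in young striatum Drd2, 0.067 ± 0.050 (SD, n = 4). It was 0.016 ± 0.059 in old striatum Drd1a, 0.015 ± 0.039 in young cortex Drd2, 0.013 ± 0.023 in old striatum Drd2, -0.024 ± 0.043 in young cortex Drd1a, -0.049 ± 0.017 in old cortex Drd1a and -0.10 ± 0.084 in old cortex Drd2 (SD, n = 4 each). The ranges of mean ± SD of neighbours in this order overlap, though not every mean lies inside the range of its neighbour. In the small subunit the means ran from 0.088 ± 0.048 (SD, n = 3) in young striatum Drd1a and 0.045 ± 0.098 in young striatum Drd2 down to -0.042 ± 0.031 in old cortex Drd1a and -0.099 ± 0.071 in old cortex Drd2 (SD, n = 4). Both subunits thus had the same groups at the ends of the order. The level over all features was likewise highest in young striatum Drd1a, 0.038 ± 0.057 (SD, n = 3). It was lowest in old cortex Drd2, -0.019 ± 0.071 (SD, n = 4), so part of this order is shared by all features.

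**Figure D1:**
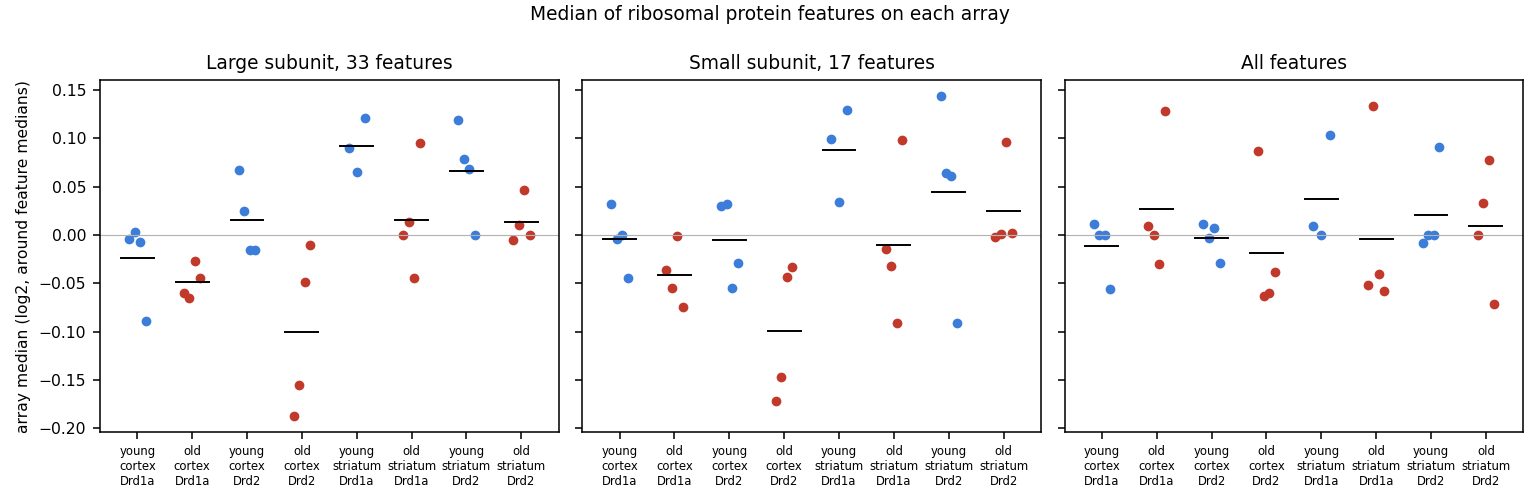
Median over the large subunit features (left), the small subunit features (middle) and all 16345 features (right) on each of the 31 arrays, in log2 units around feature medians, by group. Blue points are young arrays, red points old arrays and black bars group means. Old cortex Drd2 arrays spread from -0.19 to -0.010 in the large subunit, and young striatum Drd1a arrays lie between 0.066 and 0.12.

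The lowest group mean was in old cortex Drd2 for 33 of the 50 features, 22 of 33 in the large and 11 of 17 in the small subunit. The highest was in young striatum Drd1a for 30 of 50, 18 in the large and 12 in the small subunit. That group has 3 arrays, so its means are less averaged than the others. The shares of all features with their lowest or highest mean in these groups were not counted. Neither count can therefore be set against a background. The 4 old cortex Drd2 arrays were far apart. The large subunit medians of replicates 1 to 4 were -0.19, -0.16, -0.049 and -0.010, and those of the small subunit -0.17, -0.15, -0.043 and -0.034. Replicates 1 and 2 therefore held the low values and replicates 3 and 4 lay near the other groups.

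The astrocyte markers of these 4 arrays (9 features, median per array) were 0.82, 0.66, 0.35 and 0.037, and lay between -0.11 and 0.082 on the 4 young cortex Drd2 arrays. The oligodendrocyte markers (11 features) ran from 0.054 to 0.45 on the old and from -0.058 to 0.095 on the young arrays, also highest in replicates 1 and 2. On the 4 old cortex Drd1a arrays the astrocyte medians lay between 0.57 and 1.21 and the oligodendrocyte medians between -0.14 and 0.073. The large subunit medians of these arrays lay between -0.066 and -0.027. On the young cortex Drd1a arrays the astrocyte medians lay between 0.50 and 0.73 and the large subunit medians between -0.089 and 0.0027. The part of both marker lists in the ribosomal protein values was not tested. Without old cortex Drd2 replicates 1 and 2, a choice made after seeing the data, the lowest mean was in old cortex Drd2 for 14 of 50 features. That count, too, stands without a background over all features.

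The age comparisons ask how the translated RNA of each cell type and region differs between 2 years and 6 weeks. In Drd2 cells of the cortex 2 of the 50 features fell with age, Rpl34 and Rps3, and none rose. Calls were made for 3.63% of all features there (1.78% lower), so that 2 of 50 is close to the background. No feature of the set was called in Drd1a cells of the cortex, Drd1a cells of the striatum or Drd2 cells of the striatum. Of all features 0.453%, 3.43% and 5.7% were called there. Of the 49 features that list a ribosomal protein with other symbols 1 rose and 2 fell in cortex Drd2 cells (6.12% called). In striatum Drd2 cells 2 fell (4.08%), and none was called in Drd1a cells of either region. At an unadjusted p under 0.05 there were 19 features of the set in cortex Drd2 cells (38.0% of 50, against 15.9% of all features), 13 in striatum Drd1a cells (26.0% against 15.6%), 5 in cortex Drd1a cells (10% against 9.23%) and 6 in striatum Drd2 cells (12% against 17.2%).

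Markers of direct-pathway neurons, the projection neurons of the striatum that express Drd1a, moved with age in the Drd2 samples of both regions. Of 8 features 4 rose in cortex and 6 in striatum Drd2 cells, against 303 and 445 of all 16345 features. The 8 had median differences of 0.58 and 0.95, and none fell. Their array medians lay between -1.18 and -0.81 in young and between -0.40 and -0.30 in old cortex Drd2 cells, and between -1.36 and -0.998 in young and -0.27 and -0.0035 in old striatum Drd2 cells. The part of this shift in the age values of the ribosomal proteins was not tested.

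Rpl34, a protein of the large subunit, read 0.071, 0.14, 0.050 and 0.12 on the young cortex Drd2 arrays and -0.39, -0.32, -0.17 and -0.042 on the old ones. All old arrays lay below all young ones. The change was -0.33 ± 0.063 (SE), a 1.25-fold fall (limma adjusted p = 0.00390). The call was kept with any 1 array left out, but not in a fit of only these 2 groups (limma adjusted p = 0.107), nor without old replicates 1 and 2 together, where the change was -0.20 (limma adjusted p = 0.272).

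In the other age comparisons Rpl34 also stood lower in the old arrays. In Drd2 cells of the striatum the young arrays read 0.24, 0.25, 0.27 and 0.10 and the old ones -0.10, 0.022, -0.11 and 0.028, with no overlap. The difference was -0.26 ± 0.063 (SE; limma adjusted p = 0.0112), but at 1.196-fold it stayed under the fold threshold. In Drd1a cells it was -0.16 ± 0.068 in the striatum (limma adjusted p = 0.235) and -0.13 ± 0.063 in the cortex (limma adjusted p = 0.532).

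Some features list Rpl34 beside another symbol and are not members of the set. One of these, shared with Pcgf3, differed by -0.35 ± 0.093 (SE) in cortex Drd2 cells (limma adjusted p = 0.0281) and by -0.31 ± 0.093 in striatum Drd2 cells (limma adjusted p = 0.0439). They can share probes with the Rpl34 feature and were named after their values were seen.

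Rps3, which lines the channel where messages enter the small subunit and is also known in DNA repair, read 0.34, 0.26, 0.13 and 0.052 on the young cortex Drd2 arrays. The old arrays read -0.26, 0.0073, -0.043 and -0.0025, below every young array. The change was -0.27 ± 0.066 (SE), a 1.20-fold fall (limma adjusted p = 0.0186). In the other 3 age comparisons the difference lay between -0.084 and -0.046 and was not called. The cortex Drd2 call of Rps3 was lost without old replicate 1 (-0.21, limma adjusted p = 0.116), without young replicate 1 (-0.22, limma adjusted p = 0.0719) or young replicate 2 (-0.25, limma adjusted p = 0.0699), and with arrays centred on their medians (-0.25, limma adjusted p = 0.0511).

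Most features of the set, called or not, lay on the low side of 0 with age, mostly by small amounts. In cortex Drd2 cells 30 of 33 large and 16 of 17 small subunit features were below 0, with medians of -0.13 and -0.087 against -0.023 over all features. In striatum Drd1a cells the counts were again 30 of 33 and 16 of 17, with medians of -0.082 and -0.085 against -0.047. In striatum Drd2 cells 22 and 15 were below 0, with medians of -0.033 and -0.014 against -0.0084, and in cortex Drd1a cells 21 and 14, with medians of -0.015 and -0.059 against 0.039. In the order given, 92%, 92%, 74% and 70% of the 50 features lay below 0. Of all features 59.5%, 65.8%, 53.9% and 34.6% did. Every subunit median stayed below 0 after quantile normalization and after median centring, but those of striatum Drd1a cells shrank to -0.022 and -0.031 after quantile normalization and to -0.040 and -0.044 after centring. After the former the small subunit median of cortex Drd2 cells was -0.042, and after centring that of striatum Drd2 cells was -0.0031, while after quantile normalization both medians of cortex Drd1a cells were further from 0 (-0.045 and -0.081). Features of one array move together, so these counts are not independent, and without old replicates 1 and 2 the cortex Drd2 medians were -0.080 and -0.050 against -0.052 over all features.

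Old and young arrays did not overlap, with the old ones lower, for 16 features in cortex Drd2 cells (32.0% of 50, against 5.28% of all features). The same held for 10 in striatum Drd1a cells (20.0% against 6.89%), 6 in cortex Drd1a cells (12% against 3.6%) and 4 in striatum Drd2 cells (8.0% against 5.43%). With the old arrays higher there were 0, 1, 1 and 1 features, where 3.83%, 4.96%, 4.47% and 4.19% of all features did not overlap in that direction.

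The sizes of the age differences were bounded closely for many members. The 95% interval lay wholly inside 1.2-fold either way for 43 of 50 features in cortex Drd1a cells, 39 in striatum Drd2 cells, 32 in striatum Drd1a cells and 26 in cortex Drd2 cells. The largest differences on either side that were not called are given as values. In cortex Drd1a cells they were 0.13 ± 0.066 (SE) for Rpsa, the laminin receptor precursor of the small subunit, and -0.24 ± 0.096 for Rpl7l1, a relative of Rpl7 found in the nucleolus. In striatum Drd1a cells they were 0.14 ± 0.080 for Rpl8, which lies near the peptidyl transferase centre, and -0.49 ± 0.18 for Rps4l. In striatum Drd2 cells they were 0.13 ± 0.046 for Rpl4, which lines the exit tunnel, and -0.34 ± 0.17 for Rps4l, and in cortex Drd2 cells the highest was 0.12 ± 0.28 for Rps27l.

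**Figure D2:**
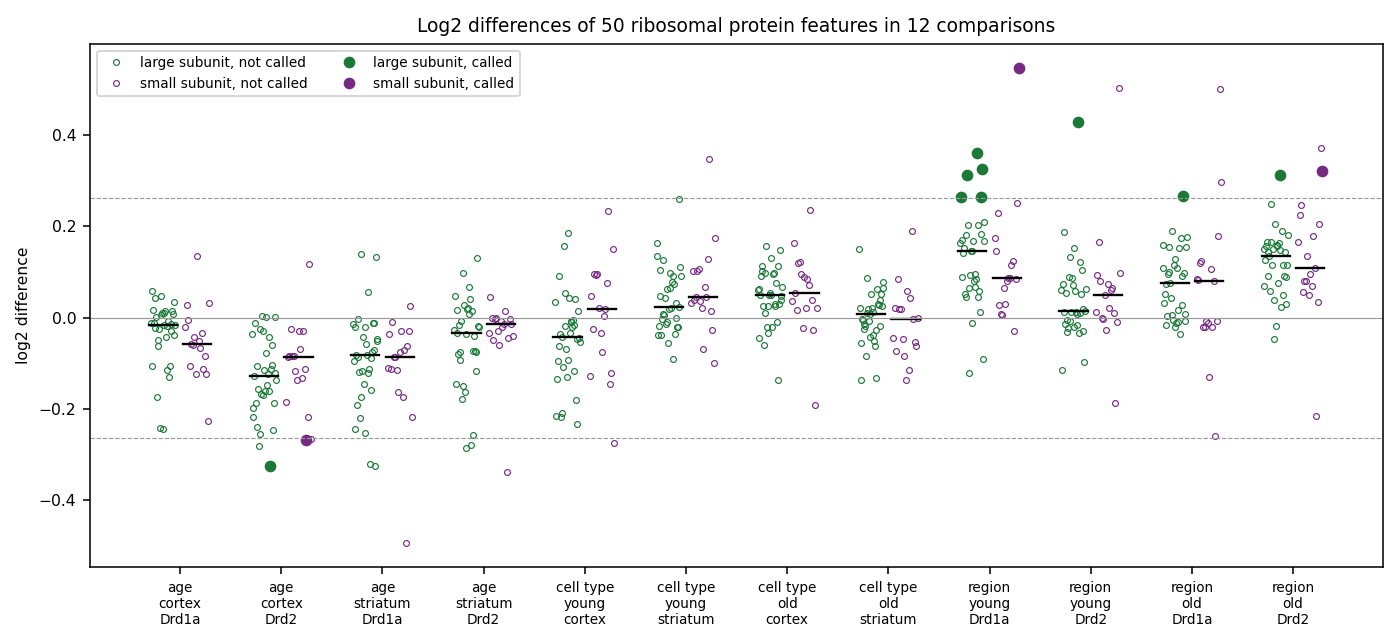
Log2 difference of each of the 50 features in the 4 age, 4 cell type and 4 region comparisons, large subunit in green and small subunit in purple. Filled points are called, black bars are medians and dashed lines mark 1.2-fold. Calls stand in cortex Drd2 age (2 lower) and in the region comparisons (6, 1, 1 and 2 higher).

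The age change itself was compared between cell types and between regions. No ribosomal protein feature was called in any of the 4 interactions, where 17, 12, 0 and 3 of all features were (0.104% and 0.0734% for age by cell type in cortex and striatum, 0% and 0.0184% for age by region in Drd1a and Drd2 cells). At an unadjusted p under 0.05 there were 7, 0, 3 and 3 features of the set (14%, 0%, 6.0% and 6.0% of 50, against 7.75%, 5.9%, 7.66% and 5.41% of all features). A fall called in cortex Drd2 cells alone is thus not shown to differ from the change in the other cells.

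The comparison of Drd1a with Drd2 cells asks whether the 2 cell types differ in translated RNA at one age and in one region. No feature of the set was called in young cortex, young striatum, old cortex or old striatum. Of all features 12%, 3.05%, 6.48% and 2.81% were called, in that order. Of the 49 features that list a ribosomal protein with other symbols 5, 1, 3 and 1 were (10.2%, 2.04%, 6.12% and 2.04%). Which of the listed genes such a feature reads was not tested. At an unadjusted p under 0.05 there were 10, 3, 8 and 2 features of the set (20.0%, 6.0%, 16.0% and 4.0% of 50, against 22.3%, 12.6%, 19.4% and 11.7% of all features). The medians were small: -0.043 in the large and 0.020 in the small subunit in young cortex, 0.022 and 0.044 in young striatum, 0.049 and 0.054 in old cortex and 0.0076 and -0.0020 in old striatum. Over all features they were -0.0055, 0.020, 0.058 and -0.016. The direction depended on the scaling for both subunits in old cortex (-0.0065 and -0.00044 after quantile normalization) and for the small subunit in old striatum (0.021). The old cortex medians were also below 0 without old cortex Drd2 replicates 1 and 2, at -0.0086 and -0.0097 against 0.087 over all features.

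The 95% interval lay inside 1.2-fold for 45 features in old cortex, 44 in old striatum, 38 in young striatum and 36 in young cortex. The largest difference upward was that of Rps4l in every one of these comparisons, 0.23 ± 0.17 (SE) in young cortex, 0.35 ± 0.18 in young striatum, 0.24 ± 0.17 in old cortex and 0.19 ± 0.17 in old striatum. The largest downward were -0.28 ± 0.11 for Rps27 in young cortex, -0.100 ± 0.30 and -0.19 ± 0.28 for Rps27l in young striatum and old cortex, and -0.14 ± 0.060 for Rpl28 in old striatum. Arrays did not overlap for 8 features that were lower in Drd1a cells of young cortex (16.0% of 50, against 9.78% of all features). With Drd1a cells higher there were 4 in old cortex (8.0% against 6.31%), 3 in young striatum (6.0% against 6.28%) and 1 each in old striatum (2.0% against 3.44%) and young cortex (2.0% against 10.5%). None was lower without overlap in young striatum, old cortex or old striatum, against 4.92%, 4.23% and 2.92% of all features.

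The comparison of striatum with cortex gave most of the calls. In young Drd1a cells 6 features were higher in the striatum and none lower, 5 of the large subunit (Rpl22, Rplp1, Rpl36, Rpl31 and Rpl37a) and 1 of the small (Rps27). In young Drd2 cells Rpl22 alone was higher, in old Drd1a cells Rpl31, and in old Drd2 cells Rpl22 and Rps27. Called in either direction were 19%, 7.58%, 16.1% and 11.3% of all features, and higher in the striatum 9.94%, 3.01%, 7.32% and 5.04%, so that of the counts of the set (6, 1, 1 and 2 of 50) only the first lay above the share of all features that were higher, and none above the share called in either direction. Of the 49 features that list a ribosomal protein with other symbols 13, 3, 6 and 6 were higher in the striatum. In the same order 0, 0, 1 and 2 were lower, and 26.5%, 6.12%, 14.3% and 16.3% of the 49 were called. Each group enters an age, a cell type and a region comparison, so these comparisons share arrays.

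Rpl22, an RNA-binding protein at the surface of the large subunit, read -0.073, 0.12, -0.20 and 0 in young cortex Drd2 cells and 0.37, 0.46, 0.44 and 0.30 in young striatum Drd2 cells. The groups did not overlap, and the difference was 0.43 ± 0.10 (SE), 1.35-fold (limma adjusted p = 0.00522), called also under every alternative run. In young Drd1a cells the cortex arrays read -0.12, 0.065, -0.056 and -0.13 and the striatum arrays 0.34, 0.26 and 0.30, again apart, with a difference of 0.36 ± 0.11 (limma adjusted p = 0.0154). That call was lost without young striatum replicate 1 (limma adjusted p = 0.0639), with quantile normalization (limma adjusted p = 0.0913) and with median centring (limma adjusted p = 0.106).

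At 2 years the Rpl22 values of the striatum spread out. The old Drd2 arrays read -0.46, -0.34, -0.0022 and 0.0092 in the cortex and -0.064, 0.13, 0.13 and 0.26 in the striatum, which overlap, with a difference of 0.31 ± 0.10 (SE; limma adjusted p = 0.0364). That call was lost when any of 5 single arrays was left out, cortex replicates 1 and 2 and striatum replicates 2, 3 and 4 (limma adjusted p between 0.0766 and 0.158), with array weights, with either scaling and in a fit of only these groups. Without old cortex Drd2 replicates 1 and 2 it was 0.11 (limma adjusted p = 0.568). In old Drd1a cells the difference was 0.15 ± 0.10 (limma adjusted p = 0.373), and the 4 old striatum arrays ran from -0.30 to 0.23.

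Rpl31, which sits at the rim of the exit tunnel, separated Drd1a cells of the 2 regions at both ages. The young cortex arrays read -0.26, -0.19, -0.21 and -0.14 and the young striatum arrays 0.087, 0.10 and 0.0051, with a difference of 0.26 ± 0.061 (SE; limma adjusted p = 0.00177). The old cortex arrays read -0.15, -0.23, -0.17 and -0.30 and the old striatum arrays 0.14, -0.039, 0.0036 and 0.11, with a difference of 0.27 ± 0.057 (limma adjusted p = 0.000919). Neither pair of groups overlapped. Both differences lie at the edge of 1.2-fold, and each fell under it when any of 4 single arrays was left out, to between 0.24 and 0.26. With median centring the young difference was 0.22 (limma adjusted p = 0.101). In Drd2 cells the difference was 0.10 ± 0.057 in young (limma adjusted p = 0.328) and 0.090 ± 0.057 in old arrays (limma adjusted p = 0.350).

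Rps27, a zinc finger protein of the small subunit, had the largest difference of the set in young Drd1a cells. The cortex arrays read -0.19, -0.18, -0.29 and -0.20 and the striatum arrays 0.44, 0.28 and 0.28, far apart, with a difference of 0.55 ± 0.12 (SE), 1.46-fold (limma adjusted p = 0.000813), called also under every alternative run. In old Drd1a cells the cortex arrays lay between -0.22 and -0.12 and the striatum arrays between -0.047 and 0.41, without overlap, and the difference of 0.30 ± 0.11 was not called (limma adjusted p = 0.0573). In old Drd2 cells it was 0.32 ± 0.11 with overlap (limma adjusted p = 0.0492), and 0.14 without old cortex replicates 1 and 2 (limma adjusted p = 0.535). That call was lost without the same 5 single arrays as for Rpl22 (limma adjusted p between 0.0642 and 0.201), with array weights, either scaling or a replicate block (limma adjusted p = 0.0618), and in a fit of only these groups. In young Drd2 cells it was 0.097 ± 0.11 (limma adjusted p = 0.735).

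The remaining calls were all in young Drd1a cells. Rplp1, an acidic protein of the stalk that receives elongation factors, read -0.0040, 0.029, 0.035 and -0.10 in the cortex and 0.34, 0.065 and 0.54 in the striatum, with a difference of 0.32 ± 0.10 (SE; limma adjusted p = 0.0187). The groups did not overlap, by a narrow margin, and without striatum replicate 3 the difference was 0.21 (limma adjusted p = 0.207). Rpl37a, a zinc-binding large subunit protein, read -0.14, -0.068, -0.082 and -0.15 in the cortex and 0.19, -0.0031 and 0.27 in the striatum, without overlap and with a difference of 0.26 ± 0.067 (limma adjusted p = 0.00425), or 0.21 without striatum replicate 3 (limma adjusted p = 0.0538). Rpl36 read -0.18, 0.11, -0.17 and -0.23 in the cortex and 0.38, 0.094 and 0.12 in the striatum, with overlap and a difference of 0.31 ± 0.10 (limma adjusted p = 0.0319), or 0.22 without striatum replicate 1 (limma adjusted p = 0.224). Without striatum replicate 1 only 1 of the 6 calls of young Drd1a cells was left, and with quantile normalization or median centring 2.

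**Figure D3:**
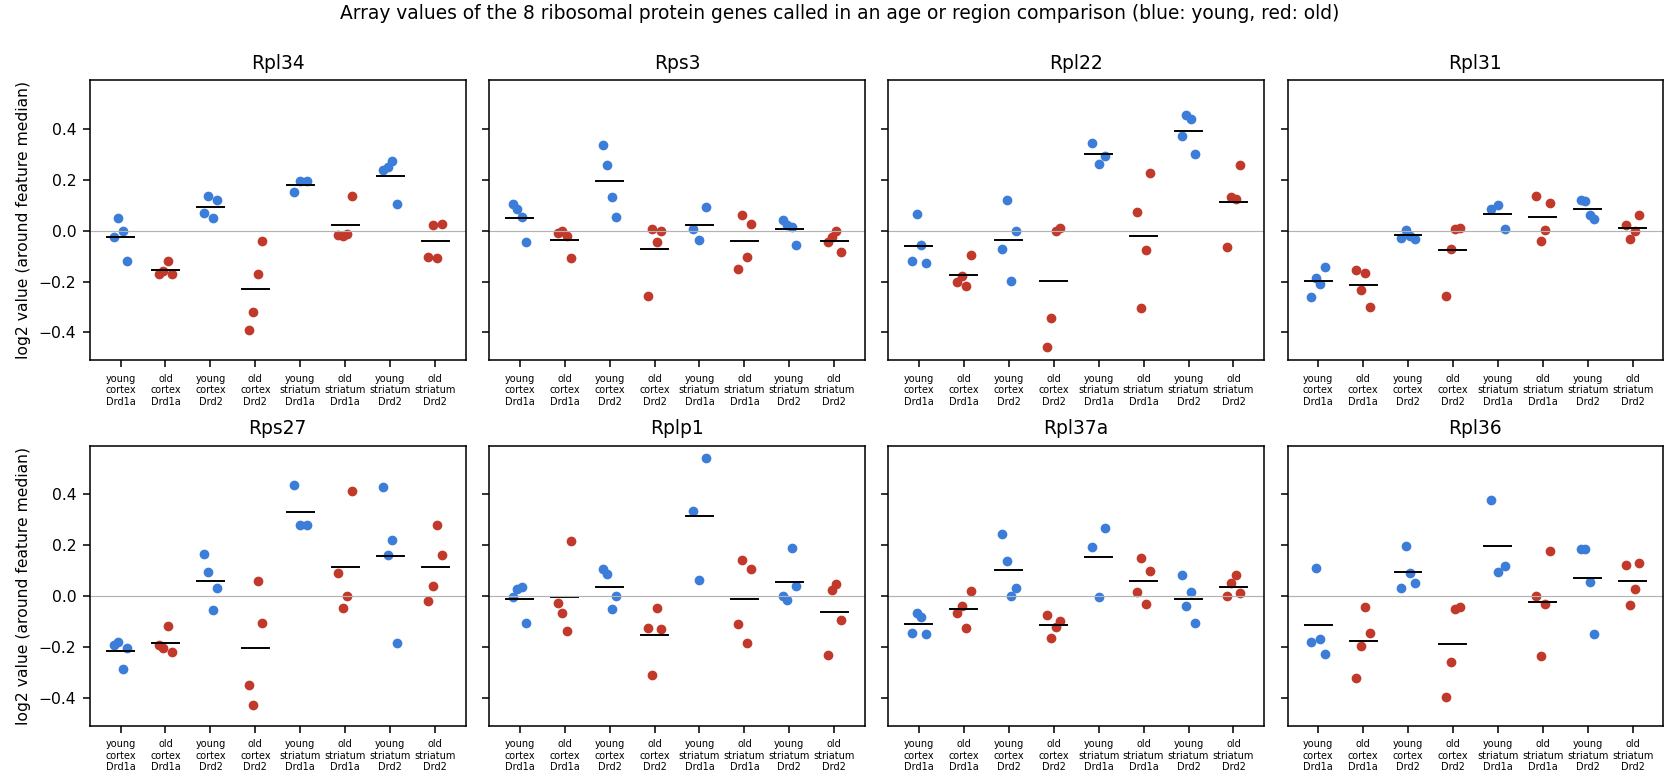
Array values, in log2 units around each feature's median, of the 8 ribosomal protein genes called in an age or region comparison, by group. Blue points are young arrays, red points old arrays and black bars group means. Rpl22 lies between 0.26 and 0.46 on all 7 young striatum arrays, and Rpl34 lies lower in old than in young arrays of cortex Drd2 and striatum Drd2 cells without overlap.

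Across the set the striatum stood slightly above the cortex. In young Drd1a cells 30 of 33 large and 16 of 17 small subunit features were above 0, with medians of 0.15 and 0.086 against 0.064 over all features. In old Drd2 cells 31 and 16 were above 0, with medians of 0.13 and 0.11 against 0.051. In young Drd2 cells 22 and 12 were above 0, with medians of 0.014 and 0.050 against 0.037, and in old Drd1a cells 26 and 9, with medians of 0.076 and 0.079 against -0.028. In the order given, 8%, 6%, 32% and 30% of the set lay below 0. Of all features 33.3%, 34.9%, 37.2% and 59.6% did. With median centring the large subunit median of young Drd2 cells turned to -0.0097, and the others stayed above 0 under both scalings. After quantile normalization those of young Drd1a cells were 0.091 and 0.034 and those of old Drd2 cells 0.065 and 0.059. Without old cortex Drd2 replicates 1 and 2 the medians of old Drd2 cells were 0.053 and 0.051 against 0.076 over all features, below that background.

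Arrays of the 2 regions did not overlap, with the striatum higher, for 20 features in young Drd1a cells (40.0% of 50, against 19.1% of all features), where the striatum had 3 arrays. The same held for 11 features in old Drd2 cells (22.0% against 6.56%), 8 in old Drd1a cells (16.0% against 9.09%) and 5 in young Drd2 cells (of 50, against 7.83%). With the striatum lower there was 1 feature in each comparison of young cells, against 12.7% of all features in Drd1a and 6.87% in Drd2 cells, and none in those of old cells, against 9.73% and 6.31%. The lowest differences were -0.12 ± 0.080 (SE) for Rpl8 in young Drd1a cells, -0.19 ± 0.066 for Rps3 in young Drd2 cells, and -0.26 ± 0.17 and -0.21 ± 0.17 for Rps4l in old Drd1a and old Drd2 cells. The highest among those not called were those of Rps27l, 0.50 ± 0.28 in young Drd2 cells, 0.50 ± 0.28 in old Drd1a cells and 0.37 ± 0.28 in old Drd2 cells.

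The astrocyte markers moved the other way between regions: their array medians lay between 0.50 and 0.73 in young cortex Drd1a and between -0.63 and -0.0068 in young striatum Drd1a cells. Of the 9 features 7 were lower in the striatum in young Drd1a cells, 3 in young Drd2, 8 in old Drd1a and 6 in old Drd2 cells. In the same order 1487, 747, 1439 and 1031 of all 16345 features were lower. The oligodendrocyte markers moved with the ribosomal proteins in young Drd1a cells. There 11 of 11 features lay above 0 with a median of 0.37, and 2 (18.2%, against 9.94% of all features) were called higher. Their array medians there ran from -0.35 to -0.14 in the cortex and from -0.28 to 0.37 in the striatum. In the other 3 region comparisons their median lay between -0.11 and -0.0083. The part of either marker list in the ribosomal protein differences was not tested. Microglia markers (10 features) had array medians between -0.17 and 0.31 over all groups and no call with age.

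Rpl10a, the usual carrier of the TRAP tag, had 2 features and was called in none of the 12 comparisons. Its differences lay between -0.17 and 0.21 in the feature with the wider span and between -0.13 and 0.16 in the other. Group means ran from -0.15 in old cortex Drd2 to 0.088 in young striatum Drd2 cells in the first. Messages of a tagging transgene would be read by the same probes wherever these match it, and how much of the signal is native was not tested.

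Among the paralogs Rps4l and Rps27l varied most. Rps4l, which RefSeq lists as a transcribed pseudogene, had the widest range of group means, 0.69, with a residual SD of 0.26, and its X-linked relative Rps4x had a difference of at most 0.11 in any comparison. Rps27l, a paralog of Rps27 induced by p53, had a range of 0.58 and a residual SD of 0.43, the arrays of old cortex Drd1a cells alone running from -1.23 to 0.0080. None of the differences of Rps4l and Rps27l was called. Rpl39l, known from testis, had one of the narrowest ranges, 0.094, while Rpl39 had differences between -0.24 and 0.19, none called. Rpl3l, known from muscle, lay between -0.16 and 0.15 and Rpl7l1 between -0.29 and 0.18, also without a call. The range of Rpl7l1, 0.32, was wider than the median range of the set (0.24) and of all features (0.30).

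After Rps4l, Rpl22 and Rps27l the widest ranges were those of Rps27 (0.55) and Rplp1 (0.47). Of all features 13.1% had a wider range than Rps4l and 27.5% than Rplp1. The narrowest range was that of Rplp0 (0.089), the base of the stalk that holds Rplp1, and 94.2% of all features had a wider one. Rpl10 (0.12) and Rpsa (0.15) were also among the 5 narrowest. Stalk proteins therefore stood near both ends of the set, but the difference between them was not tested.

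Whether a feature reads the gene it is named for matters here, because ribosomal protein genes have many processed copies. Feature numbers run along the genome (98% of consecutive named features share a chromosome), so each member's neighbours, 10 on each side, were compared with its gene's own chromosome. Of the 50 features 26 sat among genes of their own chromosome, 17 of the large and 9 of the small subunit, and 24 sat among genes of another, 16 and 8. Rpl22, Rpl37a and Rps3 are of the first kind. Rpl31, Rpl34, Rpl36, Rplp1 and Rps27 are of the second, so their features may be placed on a copy of the gene.

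The 2 kinds of feature were set side by side. The median age difference in cortex Drd2 cells was -0.13 for the first kind and -0.11 for the second, each with 1 call. In young Drd1a cells the median difference between regions was 0.094 and 0.13, with 2 and 4 calls, in old Drd1a cells 0.030 and 0.093 and in young Drd2 cells 0.0086 and 0.055. Over the 12 comparisons the second kind lay between 0.0017 below and 0.063 above the first, and the sign differed in old striatum between cell types (-0.0062 and 0.019). These differences were not tested. For the 7 genes with 2 features the median absolute difference between both, over the 31 arrays, ran from 0.0042 log2 units for Rps24 to 0.037 for Rpl10a. The largest difference on any array was 0.20, for Rps15a, whose features both sit among genes of other chromosomes. Reads from the parent gene and from an expressed copy cannot be told apart by such probes.

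**Figure D4:**
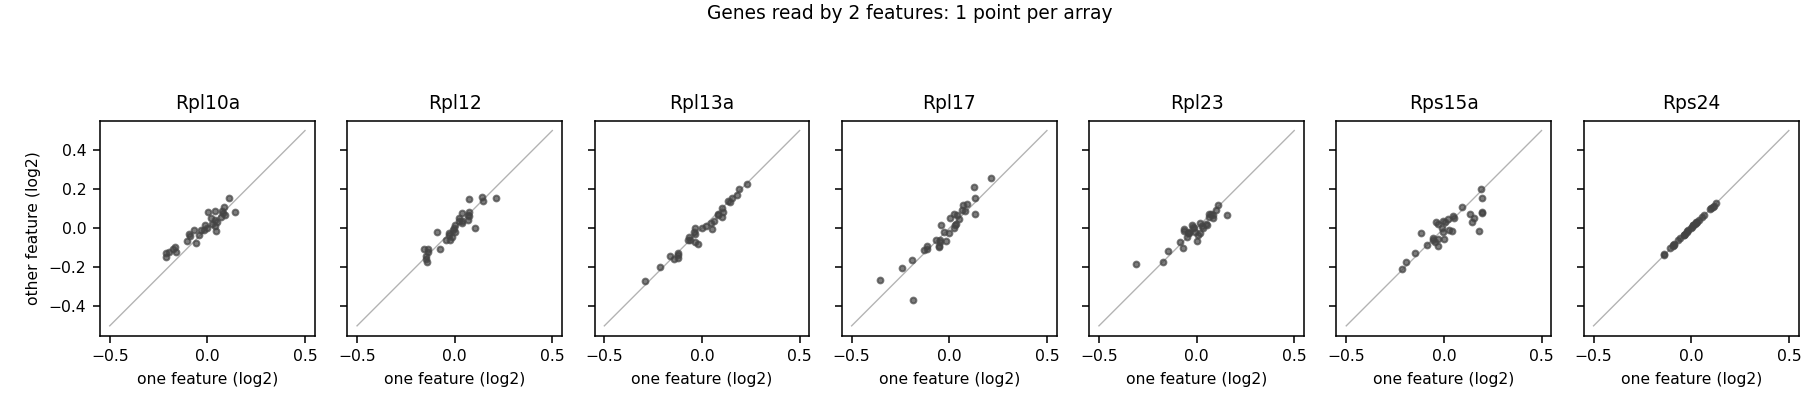
The 7 ribosomal protein genes read by 2 features, with 1 point for each of the 31 arrays and both axes in log2 units around feature medians. The grey line marks equal values. Points lie close to the line for Rps24, with a largest difference of 0.0083, and scatter most for Rps15a, up to 0.20.

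Other parts of the translation machinery were taken from fixed lists. Messages that also carry the start tract but encode no ribosomal protein (14 features) had no call in any comparison, and their medians lay between -0.025 and 0.081. Of 34 initiation factor features, 1 fell with age in cortex Drd2 cells (2.94%, against 3.63% of all features called) and 2 in striatum Drd2 cells (5.88% against 5.7%), so that both counts are at the background. Eif1ad fell in both, by 0.27 ± 0.069 (SE; limma adjusted p = 0.0239) and by 0.30 ± 0.069 (limma adjusted p = 0.00657). Of 12 elongation and release factors Etf1, which recognises stop codons, fell by 0.26 ± 0.071 in striatum Drd2 cells (limma adjusted p = 0.0211), and none changed in the other age comparisons. The call of Etf1 is 8.33% of that list, against 5.7% of all features called.

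Between regions the initiation factors went both ways. In young Drd1a, young Drd2, old Drd1a and old Drd2 cells 14.7%, 5.88%, 14.7% and 14.7% of the 34 features were called. Of all features 19%, 7.58%, 16.1% and 11.3% were, so that only the last share of the list lay above the background. Eif4e3, a cap-binding protein, was higher in the striatum in all 4 comparisons, by 0.73 ± 0.062 (SE) in young Drd1a cells and 0.29 ± 0.057 in old Drd2 cells (limma adjusted p = 4.75e-10 and 0.000858). Eif4g3, a scaffold of the cap-binding complex, was lower in all 4, between -0.75 ± 0.11 and -0.42 ± 0.10 (limma adjusted p at most 0.00954). Larp1, the binder of the start tract, belongs to a list of 17 translation control features. It was also lower in all 4, between -0.61 ± 0.11 and -0.36 ± 0.10 (limma adjusted p at most 0.0195). In the same order of groups 35.3%, 17.6%, 23.5% and 11.8% of that list were called.

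Ribosome assembly factors (65 features) had 1 rise and 2 falls with age in cortex Drd2 cells, 3 and 2 in striatum Drd1a cells, 1 and 2 in striatum Drd2 cells and none in cortex Drd1a cells. Called were thus 4.62%, 7.69%, 4.62% and 0% of the list, against 3.63%, 3.43%, 5.7% and 0.453% of all features. Nop10, of the particles that place pseudouridines in ribosomal RNA, fell in the first 3, by 0.27 ± 0.076 (SE; limma adjusted p = 0.0408), 0.33 ± 0.082 (limma adjusted p = 0.0213) and 0.27 ± 0.076 (limma adjusted p = 0.0264). Emg1, which methylates the RNA of the small subunit, fell by 0.54 ± 0.080 in striatum Drd2 cells (limma adjusted p = 7.79e-05). Of 17 translation control genes the S6 kinase Rps6ka3 fell in cortex Drd2 cells by 0.38 ± 0.11 (limma adjusted p = 0.0438) and in striatum Drd2 cells by 0.41 ± 0.11 (limma adjusted p = 0.0181). Rictor, a subunit of an mTOR complex, rose in cortex Drd2 cells by 0.36 ± 0.090 (limma adjusted p = 0.0218). In striatum Drd2 cells Eif2ak4, a kinase that senses amino acid shortage, rose by 0.29 ± 0.087 (limma adjusted p = 0.0391) and the transcription factor Atf4 fell by 0.38 ± 0.099 (limma adjusted p = 0.0174). The medians of this list were 0.14 in cortex and 0.15 in striatum Drd2 cells. Called there were 11.8% and 17.6% of the list, against 3.63% and 5.7% of all features.

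The mitochondrial ribosome, made of another set of nuclear-encoded proteins, gave more age calls. Of its 70 features 1 fell in cortex Drd1a cells, 7 in cortex Drd2 cells, 14 in striatum Drd1a cells and 15 in striatum Drd2 cells, and none rose. These are 1.43%, 10%, 20.0% and 21.4% of the 70, where 0.453%, 3.63%, 3.43% and 5.7% of all features were called in either direction. Its medians were -0.091, -0.15, -0.20 and -0.18, below those of the cytosolic subunits in each comparison. Of the 36 proteasome features none was called with age, and their medians lay between -0.086 and -0.0066. The difference between these sets was not tested.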

How the data were processed

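The data are 31 exon arrays of TRAP RNA, 1 per sample, grouped by the sample labels. The deposited values are log2 signals, processed with RMA on genome build mm8 per the submitters' processing notes, with no version given in the sources used here. For 99.98% of features the median over the arrays is 0 within 1e-06, which leaves no absolute level, and no signal over background could be given. The unit of 3 deposited columns is listed as other, since 1 value in each lacks its decimal point. These cells and an empty one, 4 in all, were set to missing.

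Gene names came from the table of the array platform, in which 14793 features carried 1 symbol, 814 several, and 738 were not listed. The 43 member genes all matched RefSeq, whose tables gave the promoter sequences. The members and all lists were chosen with earlier results of these data known. Named were called members, the largest rise and fall of each comparison, the 5 widest and 5 narrowest ranges (pseudogenes not named, apart from the paralogs), Rpl10a, paralogs with their parents, genes with 2 features, and up to 3 called members of each other list.

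limma 3.58.1 (R 4.3.3) was fitted with 1 mean per group over all 31 arrays (23 residual degrees of freedom), two-sided, and Benjamini-Hochberg adjustment over 16345 features. The median SE was 0.099 for 4 arrays against 4 and 0.11 for 4 against 3, and the number of arrays limits this precision. The fit was tested on simulated data, with noise drawn independently for each feature. A simulated 1.2-fold change was called in 22% of 50 features for age in cortex Drd2 cells. For region in young Drd1a cells it was called in 24%. At 1.3-fold the shares were 58% and 30%, and at 1.5-fold 94% and 80%. Features not called can therefore hold changes near 1.2-fold. Same-numbered arrays were compared by the correlation of their deviations from group means. In no comparison was it over 0.1 in every pair (in young cortex, between cell types, 2 of 4 were). Numbers were therefore not taken as pairs. Equal numbers need not mark arrays of one mouse, so this check cannot show whether arrays share mice. Alternatives were quantile normalization, median centring, only the groups compared, a replicate block, array weights, no fold threshold, and each array left out.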

Additional observations from a re-analysis of the deposited data

Results flagged for a closer look

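In groups of 4 arrays, the lowest or highest array was compared with the rest by Dixon's ratio at the 95% level, for the features named in the report and the subunit medians. Of 147 such groups 6 stood out (4.08%), where chance gives about 1 in 20. In old striatum Drd1a cells, Rpl34 read 0.14 on replicate 4 while the others lay between -0.022 and -0.014. In the same group Rpl39l read 0.21 on replicate 2 with the others between -0.042 and -0.037, and Rps4l read -0.21 on replicate 1 with the others between -0.098 and -0.085. In old striatum Drd2 cells 1 feature of Rpl10a read -0.031 on replicate 1 with the others between 0.077 and 0.086. The small subunit median of that group was 0.097 on replicate 3, with the others between -0.0017 and 0.0023. The large subunit median of young cortex Drd1a cells was -0.089 on replicate 4, with the others between -0.0071 and 0.0027.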

How the results depend on the processing

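Counts of ribosomal protein features called, as 2 in age cortex Drd2 (594 of all features), moved as follows. Quantile normalization gave 1 in age striatum Drd1a, 2 in cell type young cortex, 2 in region young Drd1a and 0 in region old Drd2. Median centring gave 1 in age cortex Drd2, 2 in region young Drd1a and 0 in region old Drd2. Fitting only the groups compared gave 0 in age cortex Drd2 (55 of all features), 1 in age striatum Drd1a, 1 in cell type young cortex and 0 in region old Drd2. Array weights gave 1 in age cortex Drd2, 2 in age striatum Drd1a, 2 in age striatum Drd2, 1 in cell type young cortex, 2 in region old Drd1a and 0 in region old Drd2. Without a fold threshold there were 5 in age cortex Drd2, 2 in age striatum Drd1a, 1 in age striatum Drd2, 4 in cell type young cortex, 10 in region young Drd1a and 8 in region old Drd2. The replicate block gave 1 in region old Drd2, as did cortex and striatum arrays of one number as a random replicate block, and the replicate block moved no other count by over 1.5 times. Without the old cortex Drd2 arrays 1 and 2, chosen after seeing the data, there were 0 in age cortex Drd2 and 0 in region old Drd2. Leaving out 1 array at a time gave 1 to 4 in age cortex Drd2, 0 to 2 in age striatum Drd1a and Drd2, 0 to 2 in cell type young cortex, 0 to 1 in young striatum, 0 to 3 in region old Drd1a, 0 to 4 in old Drd2 and 1 to 6 in young Drd1a. The large subunit level of young striatum Drd1a (0.092) was 0.0545 after quantile normalization and 0.0546 after centring, and that of old cortex Drd1a (-0.049) was -0.076 after centring. Rps27l (6990067), never called, changed sign with 1 array left out at a time: Rps27l (6990067), age change, cortex Drd2, ran from -0.0409 to 0.316, Rps27l (6990067), cell type difference, young striatum, from -0.302 to 0.0156, Rps27l (6990067), cell type difference, old cortex, from -0.391 to 0.0595, and Rps27l (6990067), age by region interaction, Drd1a, from -0.0015 to 0.515. Without both arrays Rps27l (6990067), region difference, old Drd2, was -0.0679. The cause was not tested.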
